A study of Mus musculus with 2 samples.

Results

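Contractile cells of the eye were picked from 2 single-cell libraries by their muscle genes, and they numbered 920 of the 62485 cells kept, 561 of 39285 in the GFP library and 359 of 23200 in the sponge library. A cell counted as contractile if it held at least 1 UMI (a molecule counted once by its barcode) of at least 3 of the 6 genes Acta2, Tagln, Myl9, Myh11, Cnn1 and Des. At least 1 of these had to be Myh11, Cnn1 or Des, and no UMI of Pecam1, C1qa, Krt5, Rpe65 or Lum was allowed. The mice carried the Abca4KO genotype in both groups, and the tissue is labelled optic cup. By the series design, each mouse was injected under the retina of both eyes, on one side with a vector whose transcript soaks up miR-181a/b microRNAs and on the contralateral side with a control. The sample labels name these AAV2.8-Sponge.mir181 and AAV2.8-GFP. The design puts injection at 2 months of age and collection 4 months later; the age tag of both samples reads 4 months, which differs from that. How many eyes were pooled into each library is unknown here. There is 1 library per group, so no difference between the libraries below has a replicate check, and every interval covers counting error only (95% level).

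Smooth muscle contracts when calcium activates myosin light chain kinase, which lets myosin pull on thin filaments of actin and tropomyosin. In the eye it is found in the walls of arterioles, where it grades into pericytes, in the ciliary muscle and in the iris. The dilator of the iris is unusual in that it is a contractile layer of the pigmented iris epithelium, so muscle and melanin genes meet in the same cell, while the iris sphincter is driven by muscarinic receptors and the dilator mainly by adrenergic ones. This is background knowledge and no cell below was assigned to any of these tissues.

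The muscle genes that chose the cells were well covered. Acta2, the smooth muscle actin, had a UMI in 94.7% of the contractile cells of the GFP library and 95.8% of the sponge library. Myh11, the smooth muscle myosin heavy chain, had one in 96.8% and 89.7%. Cnn1 (calponin) was held by only 10.3% and 16.7%, and Des (desmin) by 9.27% and 18.1%, so in most cells the choice rested on Myh11. In bipolar neurons, which should lack the gene and whose median depth was 2554 and 3715 UMIs, Myh11 had a UMI in 2.30% and 3.65% of cells. These values chose the cells and are given as a description. At the edge of the rule, 187 cells of the GFP library and 64 of the sponge library held exactly 3 of the 6 genes, and 157 and 196 further cells held 2. Mylk, the myosin light chain kinase that the rule did not use, stood at 214 and 224 CPM (UMIs of the gene per 1000000 UMIs of the set) in the cells with 2 genes. It stood at 471 and 543 CPM in those with 3, and at 859 and 2081 CPM in those with 5 or 6. Another 429 and 379 cells passed on the muscle genes but were barred by an exclusion gene, most often Rpe65 in 247 and 152 of them.

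The libraries differed in depth and in free RNA, and these differences run beside every comparison below. The contractile cells had a median of 3898 UMIs in the GFP library and 10771 in the sponge library, and a median of 10.7% and 8.93% mitochondrial UMIs. A list of 8 rod photoreceptor genes, which contractile cells should lack, took 5176 CPM of the contractile cells' UMIs in the GFP library and 2389 CPM in the sponge library, against 7122 and 5917 CPM in all other kept cells. At least 3 of those 8 genes were present in 98.9% and 99.4% of contractile cells. At least 3 of 6 Müller glia genes were present in 61.0% and 70.8% of them, and in 52.3% and 51.4% of the other cells. Transcripts of eGFP were nearly confined to the library labelled sponge, with 10 positive cells among the 38724 other cells of the library labelled GFP, so the transcript goes against the label of the GFP library. An exchange of the labels would turn the sign of every difference between the libraries. A sponge vector that carries eGFP would bear only on the eGFP of the library labelled sponge. It would leave the near absence of eGFP from the library labelled GFP without an account. Neither was tested, and the labels do not settle it. The names GFP library and sponge library stand for the labels throughout. No doublet caller was run, and 287 kept barcodes occur in both libraries. The part that depth, free RNA and doublets have in the differences between libraries was not tested.

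The contractile cells were not uniform. Most held melanin genes: 314 of 561 in the GFP library (56.0%, exact interval 51.8% to 60.1%) and 234 of 359 in the sponge library (65.2%, 60.0% to 70.1%) had at least 3 of the 7 genes Mlana, Dct, Tyrp1, Pmel, Tyr, Slc45a2 and Kit and fewer than 2 mural genes. A smaller group of 130 (23.2%) and 47 cells (13.1%) had at least 2 of the 8 mural genes Rgs5, Notch3, Kcnj8, Abcc9, Cspg4, Higd1b, Cox4i2 and Ndufa4l2, which mark pericytes and the muscle of small vessels, and fewer than 3 pigment genes. A further 33 and 20 cells met both criteria, and 84 (15.0%) and 58 (16.2%) met neither. These are called the pigment-gene, mural-gene and neither groups, after the genes that define them. The 20 genes outside the rule that stood highest over all other kept cells, by 8.62 to 26.5 times in the library with the lower ratio, divided between them. In both libraries 8 stood higher in the pigment-gene cells (Wif1, Gm49678, Unc93a, Gfra1, Pappa, Smtn, Hhip and Clmp). The other 12 stood higher in the mural-gene cells (Olfr558, Slc22a2, Map3k7cl, Rasl12, Tesc, Jph2, Tpm2, Rbm24, Myocd, Mustn1, Mrvi1 and Slc38a11).

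Both sets of genes were rarely abundant in the same cell. Pigment genes made up more than 0.5% of a cell's UMIs in 277 and 223 contractile cells, mural genes did so in 51 and 36, and both did so in 0 and 1. Cells were then thinned to 1000 UMIs, which left out 881 and 1220 shallower kept cells, 4 and 0 of them contractile. At least 3 pigment genes remained in 43.4% of the 557 contractile cells of the GFP library and 59.9% of the 359 of the sponge library. The same held in 8.32% and 5.34% of the other thinned cells. At least 2 mural genes remained in 14.4% and 10.6% of thinned contractile cells and in 1.41% and 1.22% of the others. Cells near the cuts were many: 72 and 38 contractile cells held 2 or 3 pigment genes, and 201 and 128 held 1 or 2 mural genes.

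**Figure D1:**
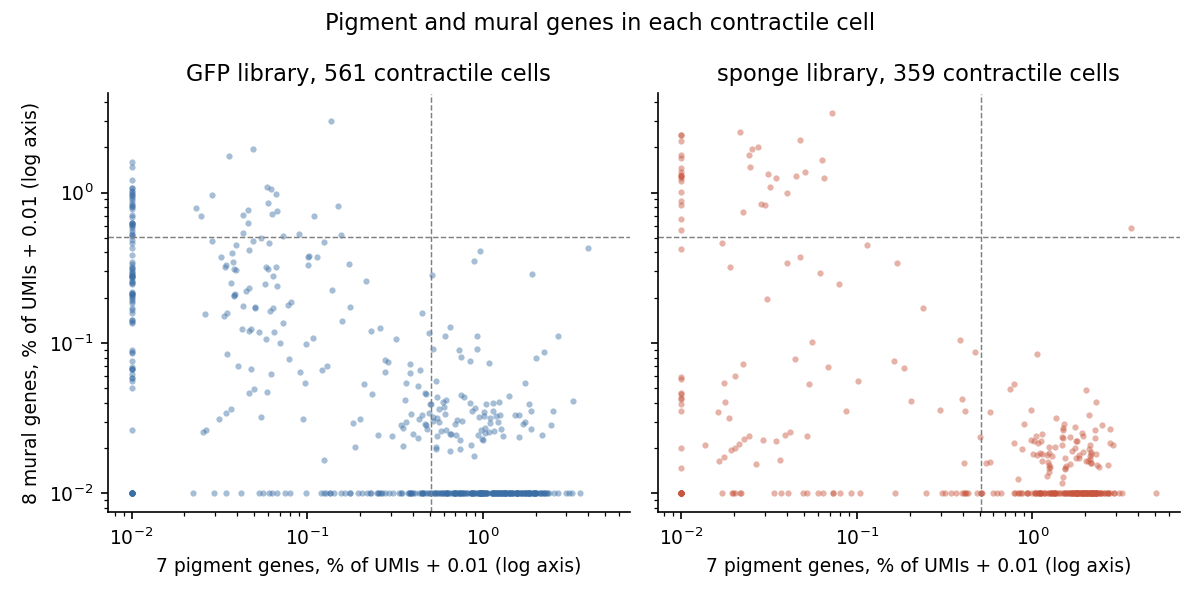
Each point is 1 contractile cell; the x axis gives the share of its UMIs in 7 pigment genes and the y axis the share in 8 mural genes, in percent with 0.01 added, on log axes, and the dashed lines mark 0.5%. The points form an arm along each axis, and 0 cells of the GFP library and 1 of the sponge library lie past both lines.

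Beside the pigment genes that define them, the pigment-gene cells held genes such as Gfra1 and Pappa that stood lower in other pigmented cells. Pmel, Dct and Tyrp1 are among the 7 genes that made the split, so their levels are a description. Pmel, which forms the fibrils of the melanosome, stood at 2691 and 5243 CPM in the GFP and sponge libraries, against 28.6 and 9.98 in the mural-gene cells. Dct, a melanin-pathway enzyme, stood at 5044 and 5866 CPM, and Tyrp1, another, at 859.9 and 1402 CPM. Both were lower than in 1380 and 391 other pigment cells, which held at least 5 of the 7 pigment genes and none of Myh11, Cnn1 or Des, and in which Dct stood at 10409 and 8961 CPM and Tyrp1 at 1838 and 2615 CPM. The pigment-gene cells needed only 3 of the 7, so the unequal cuts favour this order. These comparison cells were chosen after the data were seen. Gfra1, a receptor for glial-derived neurotrophic factor, stood at 223 and 319 CPM in the pigment-gene cells and 12.6 and 28.8 CPM in the other pigment cells. Pappa, a protease that cleaves insulin-like growth factor binding proteins, stood at 345 and 460.2 against 31.6 and 62.7 CPM.

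Wif1, Clmp and Nos1 also stood higher in the pigment-gene cells than in the other pigment cells in both libraries, and Grem1 did so in the GFP library only. Wif1, a secreted Wnt inhibitor, stood at 100.5 and 191 CPM in the pigment-gene cells, 2.39 and 2.50 in the mural-gene cells and 1.58 and 0.575 in the other pigment cells. Clmp, an adhesion molecule, stood at 227 and 381 CPM against 17.9 and 42.0 in the other pigment cells, and Nos1, the neuronal nitric oxide synthase, at 41.2 and 59.2 against 2.37 and 0.767. Grem1, a secreted inhibitor of bone morphogenetic proteins, stood at 287 and 445 CPM in the pigment-gene cells and 194 and 718 in the other pigment cells. Adra1a, an adrenergic receptor, stood at 31.8 and 44.5 CPM in the pigment-gene cells and 4.77 and 9.98 in the mural-gene cells, and Chrm2, a muscarinic receptor, at 44.3 and 64.7 CPM against 14.3 and 20.0. In the mural-gene cells both receptors had fewer than 20 UMIs over both libraries, so their levels there rest on few counts. Adra1a also stood at 7.43 and 7.69 CPM in bipolar cells and Chrm2 at 16.4 and 13.8 CPM.

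Pln, Casq2, Ednra, Heyl and Mgp stood higher in the mural-gene than in the pigment-gene cells in both libraries; these genes were chosen after their values were seen. Of 9789 genes with enough UMIs, 429 stood at least 2-fold higher in the mural-gene than in the pigment-gene cells in both libraries, and 487 at least 2-fold higher in the pigment-gene cells. Pln (phospholamban), which restrains the calcium pump of the sarcoplasmic reticulum, stood at 150.3 and 119.8 CPM in the mural-gene cells and 3.74 and 0.654 in the pigment-gene cells. Casq2, which stores calcium there, stood at 59.6 and 105 CPM against 0 and 0.654. Jph2, which joins the reticulum to the cell membrane, was less divided, at 83.5 and 72.4 CPM against 21.8 and 66.7. Ednra, the endothelin receptor of vascular muscle, stood at 167 and 287 CPM against 4.99 and 1.63, and Heyl, a target of Notch signalling, at 73.9 and 87.4 against 1.25 and 0.327. Mgp, a matrix protein that inhibits calcification, stood at 1197 and 3926 CPM in the mural-gene cells, against 46.2 and 7.52 in the pigment-gene cells.

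Mustn1 and Map3k7cl followed the same split, as did the transcription factor Ebf1. Mustn1 stood at 365 and 287 CPM in the mural-gene cells, against 7.49 and 0 in the pigment-gene cells. Map3k7cl stood at 95.4 and 132 CPM against 0 and 0.327, and Ebf1 at 677 and 1121 CPM against 49.9 and 9.15. Myocd, the coactivator that drives smooth muscle genes with serum response factor, stood at 100.2 and 142 CPM in the mural-gene cells, 38.4 and 119.8 in the neither group and 5.62 and 5.56 in the pigment-gene cells. The pigment-gene cells thus had Myh11 at 768 and 1156 CPM with little Myocd, though Myocd was still above the 1.90 and 0.192 CPM of the other pigment cells. In 316 and 120 pericytes without Myh11, Cnn1 or Des, Map3k7cl stood at 11.0 and 8.93 CPM, Casq2 at 39.6 and 103 CPM and Ednra at 93.5 and 92.6 CPM. Casq2 in pericytes of the sponge library was thus close to its level in the mural-gene cells.

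Among the 3 groups, Cnn1, Tfap2b and Chrm3 stood highest in the neither group in both libraries. Cnn1 helped to choose the cells, so its level is a description. Chrm3, the muscarinic receptor that contracts the iris sphincter and ciliary muscle, stood at 161 and 517 CPM there, 107 and 202 in the mural-gene cells and 121 and 101 in the pigment-gene cells, but bipolar cells held 182 and 178 CPM, so the level in the GFP library was below that of the neurons. Tfap2b, a transcription factor of the anterior eye, stood at 76.8 and 164 CPM in this group, against 21.5 and 37.4 in the mural-gene cells, 26.8 and 11.8 in the pigment-gene cells and 38.0 and 17.5 in bipolar cells. Fibroblasts also held Tfap2b, at 68.7 and 193 CPM; the part of fibroblast RNA in this group was not tested. The median depth of the group was 2552.5 and 4844.5 UMIs, the lowest of the 3 groups in both libraries, so cells with pigment or mural genes below detection can be among them.

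**Figure D2:**
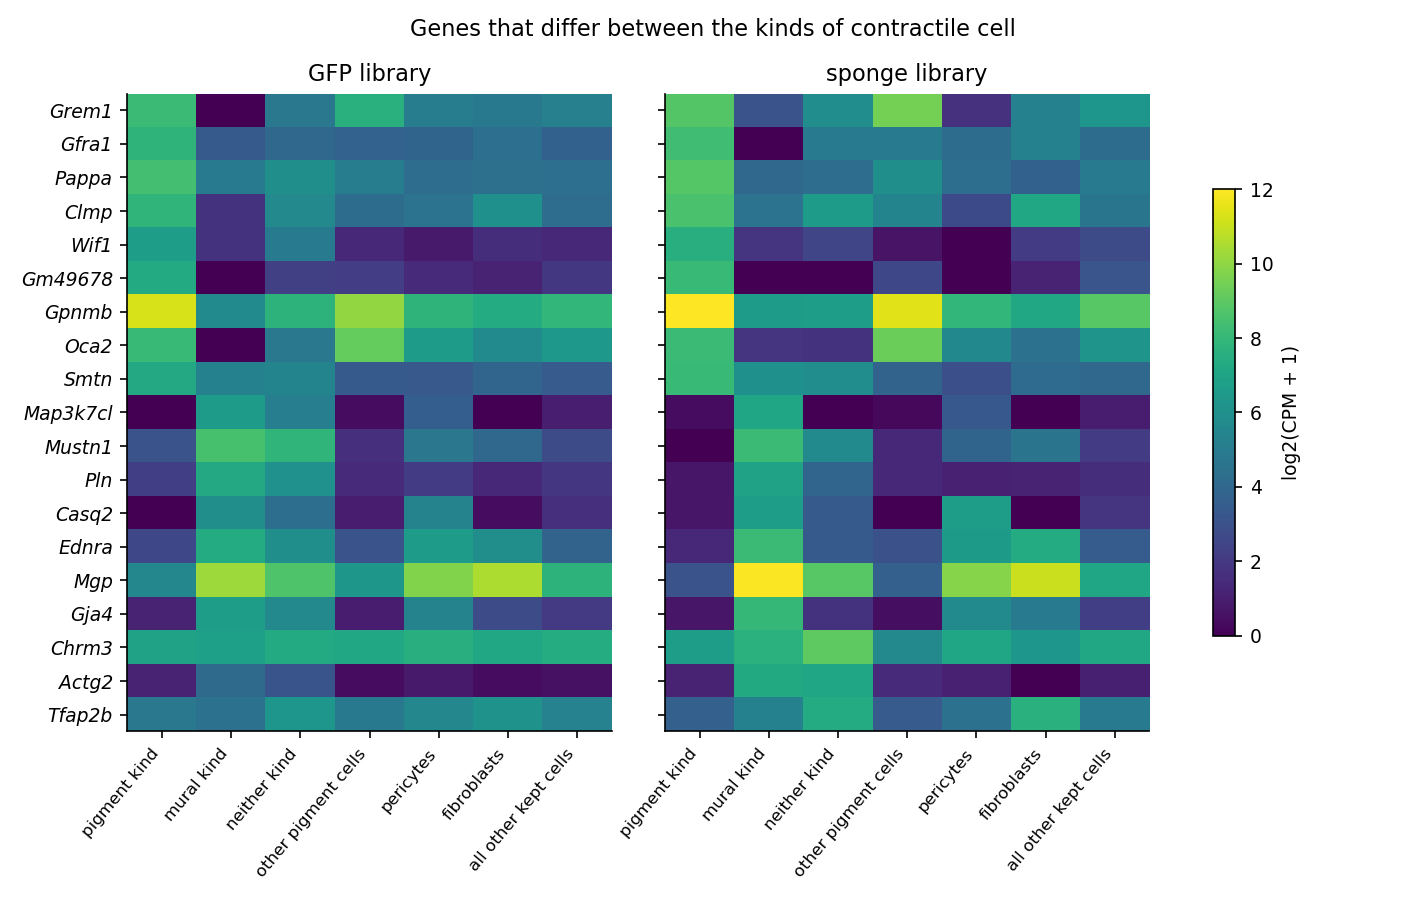
Rows are genes and columns are sets of cells in each library; the colour gives log2(CPM + 1). Grem1 to Oca2 are bright in the pigment-gene cells, Map3k7cl to Gja4 in the mural-gene cells, and Chrm3 in the neither group of the sponge library.

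Promoters of muscle and pigment genes detected among the contractile cells were searched for short motifs. The windows run from 250 bases before to 50 after a RefSeq start (GRCm38.p6), and 2 motifs were searched on both strands: the CArG box bound by serum response factor, and TCATGTG, the core of the element bound by the pigment factor MITF, which do not overlap. The CArG box was present in 1.63% of the 32851 promoters in the table and TCATGTG in 3.77%. Of the 26 genes of the rule and the contractile apparatus list, 22 had a promoter in the table and 3 of them, Myl9, Vcl and Filip1l, had a CArG box. Of the 7 pigment genes, 4 had a promoter in the table and 3 of them, Tyrp1, Dct and Tyr, had TCATGTG. A match describes the letters only. Shown are Myl9, a muscle gene of the rule (chr2:156775214-156775513, plus strand), and Fbxl22, the muscle F-box gene described further on (chr9:66514544-66514843, minus strand), with the CArG box in capitals, and then Tyrp1 (chr4:80833963-80834262, plus strand), Dct (chr14:118052197-118052496, minus strand) and Tyr, which encodes tyrosinase (chr7:87493463-87493762, minus strand), with TCATGTG or its reverse complement in capitals.
Myl9: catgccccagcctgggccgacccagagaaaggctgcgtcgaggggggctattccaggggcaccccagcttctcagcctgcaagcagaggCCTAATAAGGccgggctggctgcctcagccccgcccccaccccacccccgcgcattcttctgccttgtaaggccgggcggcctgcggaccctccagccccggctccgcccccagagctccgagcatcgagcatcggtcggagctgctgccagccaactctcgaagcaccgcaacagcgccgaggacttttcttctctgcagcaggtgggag
Fbxl22: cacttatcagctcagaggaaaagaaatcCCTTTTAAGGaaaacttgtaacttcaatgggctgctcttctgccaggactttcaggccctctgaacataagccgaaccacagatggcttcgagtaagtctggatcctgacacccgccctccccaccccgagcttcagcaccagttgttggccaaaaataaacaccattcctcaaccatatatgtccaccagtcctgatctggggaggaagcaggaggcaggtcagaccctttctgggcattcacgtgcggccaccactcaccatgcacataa
Tyrp1: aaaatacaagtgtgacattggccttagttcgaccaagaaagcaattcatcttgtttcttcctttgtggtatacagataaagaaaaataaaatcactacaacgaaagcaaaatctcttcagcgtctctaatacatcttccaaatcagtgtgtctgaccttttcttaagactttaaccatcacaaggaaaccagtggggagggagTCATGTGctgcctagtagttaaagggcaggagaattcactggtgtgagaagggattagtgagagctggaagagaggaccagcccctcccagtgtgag
Dct: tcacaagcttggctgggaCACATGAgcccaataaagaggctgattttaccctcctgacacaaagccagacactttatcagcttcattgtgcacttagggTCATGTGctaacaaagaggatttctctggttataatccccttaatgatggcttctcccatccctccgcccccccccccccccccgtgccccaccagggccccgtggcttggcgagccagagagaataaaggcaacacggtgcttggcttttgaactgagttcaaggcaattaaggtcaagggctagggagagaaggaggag
Tyr: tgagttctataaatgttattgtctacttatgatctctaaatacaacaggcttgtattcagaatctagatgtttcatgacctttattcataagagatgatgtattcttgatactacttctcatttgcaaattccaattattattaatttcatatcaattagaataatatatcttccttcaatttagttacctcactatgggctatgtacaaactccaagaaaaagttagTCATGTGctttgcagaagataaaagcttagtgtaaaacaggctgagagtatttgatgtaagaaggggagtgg
The CArG box began at base -161 from the start of Myl9 and at -222 from that of Fbxl22. TCATGTG began at -47 in Tyrp1 and at -22 in Tyr, and Dct had both a reverse complement at -232 and a forward copy at -151.

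The 3 groups held the muscle genes in different proportions. Acta2, Cnn1 and Des chose the cells, and pericytes and other pigment cells lack Cnn1 and Des by their definition, so these levels are a description. Acta2 stood at 1236 and 3260.3 CPM in the pigment-gene cells, 1646 and 3419.7 in the mural-gene cells and 1244 and 3247 in the neither group, against 123 and 49.1 in pericytes, 36.8 and 90.7 in the other pigment cells and 27.5 and 37.9 in bipolar cells. Cnn1 stood at only 6.24 and 11.1 CPM in the pigment-gene cells, 64.4 and 175 in the mural-gene cells and 115 and 465 in the neither group. Des followed the same order in part, at 3.12 and 1.96 CPM in the pigment-gene cells, 85.9 and 327 in the mural-gene cells and 61.5 and 186 in the neither group, and in the pigment-gene cells it was close to the 2.69 and 1.96 CPM of bipolar cells. Smtn (smoothelin), a marker of contractile muscle that the rule did not use, went the other way, at 149 and 269 CPM in the pigment-gene cells, 38.2 and 64.9 in the mural-gene cells and 42.2 and 58.7 in the neither group. Tpm2, a tropomyosin, stood at 281 and 735 CPM in the pigment-gene cells, 654 and 1495 in the mural-gene cells, 499 and 1457 in the neither group and 65.7 and 45.7 in pericytes. Single cells carried part of the mural-gene levels in the sponge library. There 1 cell held 31 of 70 Cnn1 UMIs, 1 held 51 of 131 Des UMIs and 1 held 364 of 1370 Acta2 UMIs. In the GFP library the richest mural-gene cell for each gene held 2 of 27, 2 of 36 and 23 of 690.

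**Figure D3:**
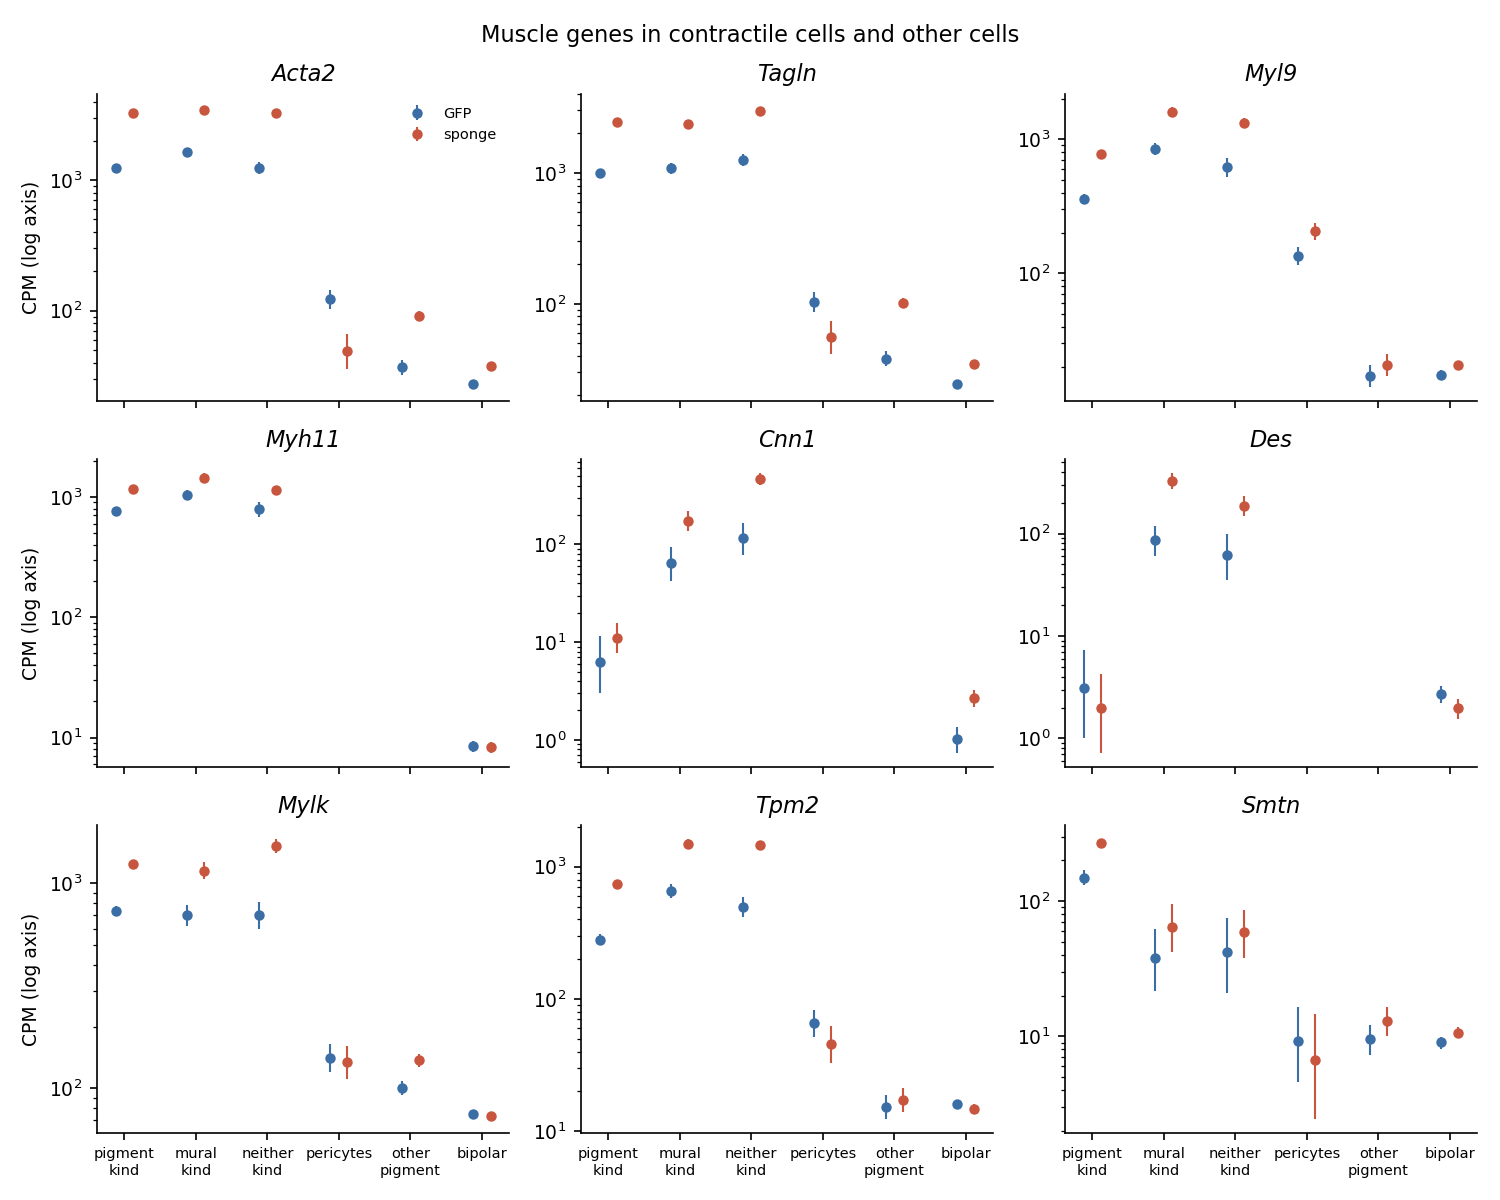
Levels of 9 muscle genes in CPM on a log axis, in the 3 groups of contractile cells and in pericytes, other pigment cells and bipolar cells; points are the GFP and sponge libraries, bars are exact Poisson intervals (counting error only), and a level of 0 is not drawn. The first 6 genes chose the cells; Myh11, Cnn1 and Des are 0 in pericytes and other pigment cells because the definition of those sets bars them.

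The share of contractile cells differed more between the libraries after thinning than at full depth. It was 1.43% of kept cells in the GFP library (exact Clopper-Pearson interval 1.31% to 1.55%) and 1.55% in the sponge library (1.39% to 1.71%). With the 38404 and 21980 kept cells of at least 1000 UMIs thinned to that number and the rule applied again, 268 cells (0.698%, 0.617% to 0.786%) and 281 cells (1.28%, 1.13% to 1.44%) were contractile. Of these, 67 and 103 had been barred by an exclusion gene at full depth, and the 201 and 178 that were contractile both times made up 0.523% (0.454% to 0.601%) and 0.810% (0.696% to 0.937%). The pigment-gene share of contractile cells was higher and the mural-gene share lower in the sponge library, as given above, with the same direction after thinning. How much iris, ciliary or vessel tissue entered each dissociation is unknown here.

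Muscle genes beyond the rule were higher in the contractile cells of the sponge library. A gene counted as measured with at least 20 UMIs over both libraries, and ratios are log2 of sponge over GFP CPM with 0.5 added to each count. Of 13501 measured genes, 5.53% were at least 2-fold higher and 7.35% at least 2-fold lower in the sponge library, with 6287 above 0 and a median of -0.05. Of the 20 contractile apparatus genes, 17 were above 0, 5 at least 2-fold higher and 1 at least 2-fold lower, with a median of 0.83. Tpm2 stood at 359 and 887 CPM, a log2 ratio of 1.31 (1.20 to 1.41), and Smtn at 109 and 222 CPM, a log2 ratio of 1.02 (0.83 to 1.22). Synm, an intermediate filament protein that ties desmin to the membrane, stood at 49.9 and 107 CPM (log2 ratio 1.10), and Lmod1, which nucleates actin filaments in smooth muscle, at 55.9 and 115 CPM (log2 ratio 1.03). The members below 0 were Mustn1 (-1.34), Filip1l (-0.75) and Ppp1r14a (-0.59), an inhibitor of myosin phosphatase.

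The same direction was seen outside the contractile cells for some of these genes and not for others. Acta2, which the rule used, had a log2 ratio of 1.37 in contractile cells, 1.36 in all other kept cells (46.6 and 119 CPM) and -1.31 in pericytes. Tagln, also used by the rule, had 1.33, 1.37 and -0.89. The pericytes held only 146 and 44 Acta2 UMIs, and their median depth was 3070.5 and 5602.5 UMIs. They were picked to lack Myh11, Cnn1 and Des, and such a bar takes out more cells where depth is higher. The part of this choice in the pericyte ratios was not tested. Tpm2 had 1.03 in the other kept cells, Mylk had 0.87 in contractile and 0.35 in other cells, and Lmod1 had 0.05 in the other cells. The other kept cells include those with muscle genes that an exclusion gene barred, and their part and that of free RNA in these ratios were not tested.

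Within each group the contractile apparatus list kept its direction. Its median was 0.65 in the pigment-gene cells (18 genes measured, 17 above 0, 6 at least 2-fold higher), where 5.36% of 12208 measured genes were at least 2-fold higher and 9.64% at least 2-fold lower. It was 0.66 in the mural-gene cells (17 of 20 above 0, 5 at least 2-fold higher), where 9.82% of 6765 were at least 2-fold higher and 6.61% lower. It was 0.81 in the neither group (16 of 20 above 0, 9 at least 2-fold higher), where 10.0% of 6201 were at least 2-fold higher and 5.64% lower. Of all measured genes, 5592, 3449 and 3284 were above 0 in the pigment-gene, mural-gene and neither cells. Tpm2 had log2 ratios of 1.39, 1.19 and 1.54 in these groups, and Tpm1, another tropomyosin, 0.67, 0.48 and 0.78. Actg2, the actin of visceral muscle, was seen at 16.7 and 157 CPM in the mural-gene and 7.68 and 132 in the neither cells, and at 1.25 and 1.31 in the pigment-gene cells. A single mural-gene cell held 48 of the 63 Actg2 UMIs of that group in the sponge library, and without it the level was 39.7 CPM. For Mylk, the richest mural-gene cell held 155 of 462 UMIs in the sponge library and 10 of 292 in the GFP library. The median of the list in the mural-gene cells was not tested without such cells. Mustn1 did not follow, with a log2 ratio of -0.34 (-0.71 to 0.01) in the mural-gene and -2.11 (-2.91 to -1.40) in the neither cells.

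The immediate early and heat shock, pericyte and matrix lists had higher medians in the mural-gene cells than in the other 2 groups, partly over different genes. The immediate early and heat shock list had a median of 1.22 in the mural-gene cells, with 22 of 22 genes above 0 and 16 at least 2-fold higher. It had 0.34 in the pigment-gene cells (15 of 22 above 0, 4 at least 2-fold higher) and 0.78 in the neither group (20 of 22 above 0, 8 at least 2-fold higher). Hspa1a, a heat shock chaperone, stood at 408 and 1483 CPM in the mural-gene and 144 and 127 in the pigment-gene cells, and Jun at 732 and 1959 CPM against 548 and 744. Genes of this list are known to respond to tissue dissociation. Junb, one of them, was higher outside these cells too, with a log2 ratio of 1.28 in contractile, 1.47 in pericytes and 1.15 in all other kept cells. Pericyte genes, of which 8 of the 12 also helped to define the mural-gene group, had a median of 1.40 in it (11 genes measured). It was -0.70 in the pigment-gene cells (5 measured) and -0.96 in the neither group (4 measured), so these medians cover different genes. Vtn, a secreted pericyte gene not used in the split, stood at 150.3 and 993 CPM in the mural-gene cells and 535 and 1071 in pericytes. The matrix list had a median of 1.12 in the mural-gene cells, with Col4a1, a basement membrane collagen, at 126 and 289.5 CPM, and of 0.06 in the pigment-gene cells, with Col4a1 at 36.2 and 21.9. These rest on 16 and 18 measured genes of 25, not all the same. The matrix median was 0.45 in the neither group (16 measured).

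The immune-response lists had medians above 0 in all 3 groups, and members of them were higher in the surrounding cells as well. The antigen presentation list had a median of 0.62 over all contractile cells (13 of 14 measured genes above 0, 2 at least 2-fold higher), 0.53 in the pigment-gene and 1.57 in the mural-gene cells, where 7 of its 15 genes were measured. H2-D1, a class I molecule, stood at 227 and 387 CPM in the pigment-gene and 95.4 and 359 in the mural-gene cells, and at 142 and 417 in all other kept cells. The interferon response list had a median of 0.77 (16 of 20 above 0, 6 at least 2-fold higher). Gbp2, an interferon-induced GTPase, stood at 60.5 and 123 CPM in the pigment-gene cells and 24.2 and 51.4 in the other kept cells. The muscle state change list, of genes that rise when vascular muscle loses its contractile state, had a median of 0.88 (12 of 13 above 0, 5 at least 2-fold higher). Col8a1, a vessel-wall collagen, stood at 71.6 and 117 CPM in the mural-gene cells, against 132 and 269 in the pigment-gene cells.

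**Figure D4:**
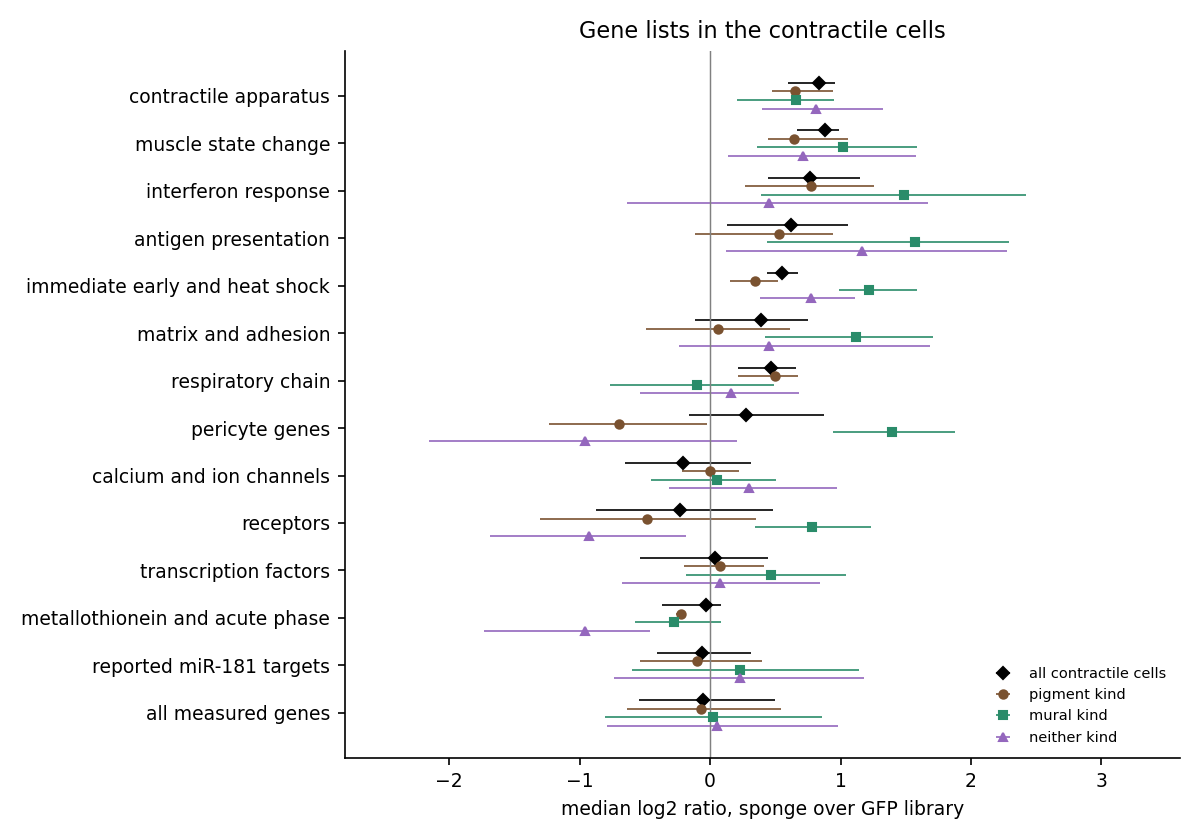
Median log2 ratio of sponge over GFP for each gene list, over all contractile cells and in the 3 groups; bars run from the median lower to the median upper counting bound of the measured genes. The contractile apparatus list lies above 0 in all 4, while the pericyte, immediate early and matrix lists are furthest to the right in the mural-gene cells.

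Channels, receptors and transcription factors had medians that differed between the groups. The medians over all contractile cells were -0.21 for 16 channel and calcium genes, -0.23 for 12 measured receptors of 21, and 0.04 for 21 measured factors of 23. In the mural-gene cells all 5 measured receptors of 21 were above 0, with a median of 0.78, and 16 of 20 measured factors were, with a median of 0.47. Of all 6765 genes measured in those cells, 3449 were above 0. The other receptors of the list had too few UMIs there. The receptor median was -0.49 in the pigment-gene cells (9 measured) and -0.93 in the neither group (5 measured), and the factor median was 0.07 in the pigment-gene and 0.07 in the neither cells. The channel list had medians of 0.00, 0.05 and 0.30 in the pigment-gene, mural-gene and neither cells. Prkg1, the kinase through which nitric oxide relaxes smooth muscle, stood at 1166 and 524 CPM in the pigment-gene cells, a log2 ratio of -1.15 (-1.25 to -1.06), and at 2858 and 2813 in the mural-gene cells, a log2 ratio of -0.02 (-0.14 to 0.10). Bipolar cells held Prkg1 at 1744 and 2023 CPM and other pigment cells at 1291 and 717, so its level in the pigment-gene cells was below that of the neurons in both libraries. Kcnma1, the large-conductance potassium channel, stood at 517 and 238 CPM in the pigment-gene cells, against 888 and 917 in bipolar cells. Cacna1c, the main calcium channel of vascular muscle, stood at 334 and 494 CPM in the mural-gene cells and 26.2 and 12.7 in the pigment-gene cells. The respiratory chain list had a median of 0.46 overall (15 of 20 above 0), 0.50 in the pigment-gene and -0.10 in the mural-gene cells, with Cox7c against it at 599 and 438 CPM. The metallothionein and acute phase list had a median of -0.03.

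By a rule on size, 12 genes were named as furthest higher and 12 as furthest lower in the sponge library, among 3508 candidates with at least 50 UMIs and at least 20 CPM in a library that stood no lower in contractile cells than in other cells. Among the higher ones spread over many cells was Cited4, a transcriptional coregulator, at 37.1 and 158 CPM, a log2 ratio of 2.08 (1.77 to 2.42), with a UMI in 69 and 165 cells. Carmn, a noncoding RNA of smooth muscle, stood at 16.0 and 68.2 CPM, a log2 ratio of 2.08 (1.61 to 2.61). Fbxl22, an F-box protein of the muscle sarcomere whose promoter is shown above, stood at 27.2 and 111 CPM, a log2 ratio of 2.02 (1.66 to 2.42). Scx, a tendon transcription factor, Adora2b, an adenosine receptor, and Tst, a mitochondrial sulphur transferase, had log2 ratios of 2.22 (1.69 to 2.84), 2.29 (1.58 to 3.18) and 1.78 (1.56 to 2.00). In all other kept cells Cited4 was also higher in the sponge library, at 5.87 and 17.7 CPM, as were Tst at 10.4 and 28.9 CPM, Carmn at 1.88 and 4.36 CPM, Scx at 5.03 and 11.2 CPM and Adora2b at 6.80 and 11.9 CPM. Fbxl22 was nearly level there, at 3.58 and 3.89 CPM.

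Other named genes rested in part on single cells. One cell of the neither group held 426 UMIs of Car3, 89.3% of all in the sponge library, and without the richest cell of each library its log2 ratio moved from 5.07 to 2.78. For Npy it moved from 3.28 to -0.83, for Igfbp2 from 3.10 to 1.84, and for Gdf15 from 2.38 to 0.88. One sponge cell held 36.6% of the Actg2 UMIs and another 32.5% of those of Ccl2, a chemokine. The log2 ratio of Actg2 was 2.66 (1.86 to 3.70) and moved to 2.25, and that of Ccl2 was 2.10 (1.75 to 2.50) and moved to 1.84. That of Pln, described next, moved from -1.30 to -1.87. Those of Cited4, Carmn, Fbxl22, Scx and Tst moved by less than 0.1.

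The genes furthest lower in the sponge library were Ulk4, mt-Nd6, Lrrtm3, Crip1, Ccn3, Mustn1, Ctnna3, Gm10076, Rcan2, Rpl39, Pln and Rpl37. Crip1, a small zinc-binding protein abundant in mural cells, stood at 542 and 202 CPM, a log2 ratio of -1.43 (-1.55 to -1.30). Ctnna3, an alpha catenin of muscle junctions, had -1.22 (-1.41 to -1.03), and Pln -1.30 (-1.79 to -0.81). Crip1, Mustn1, Ctnna3 and Pln stood higher in the mural-gene than in the pigment-gene cells in both libraries, and each had a lower CPM in the sponge library in all 3 groups, with intervals that include 0 for Mustn1 and Pln in the mural-gene cells. The log2 ratios of Crip1 were -0.73 in the pigment-gene, -0.60 in the mural-gene and -3.55 in the neither cells, and those of Ctnna3 were -1.92, -0.53 and -0.79 in the same order. Pln had -0.32 (-0.90 to 0.24) in the mural-gene and -2.14 (-3.84 to -0.80) in the neither cells, and 6 and 2 UMIs in the pigment-gene cells. Mustn1 had -0.34 (-0.71 to 0.01) in the mural-gene and -2.11 in the neither cells, and 12 and 0 UMIs in the pigment-gene cells. Within the neither group, other genes that stood higher in mural-gene cells also differed between the libraries, in both directions. In the neither group Slc22a2 stood at 57.6 and 0 CPM and Map3k7cl at 34.6 and 0. Myocd stood at 38.4 and 119.8 CPM there and Rbm24 at 42.2 and 103. The part of the mix of groups in these ratios, and of the mix of cells within the neither group, was not tested. Ulk4 stood at 69.5 and 12.4 CPM in contractile cells and 53.0 and 13.8 CPM in all other kept cells. Every other gene named as lower was also lower in the sponge library in all other kept cells. Levels there were 452 and 139 CPM for mt-Nd6, 115 and 68.6 for Crip1 and 71.6 and 46.9 for Ctnna3. They were 107 and 42.4 for Gm10076, 940 and 483 for Rpl39 and 849 and 476 for Rpl37. The fall was smaller for Lrrtm3, at 36.0 and 28.2 CPM, and for Pln, at 2.67 and 1.95.

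**Figure D5:**
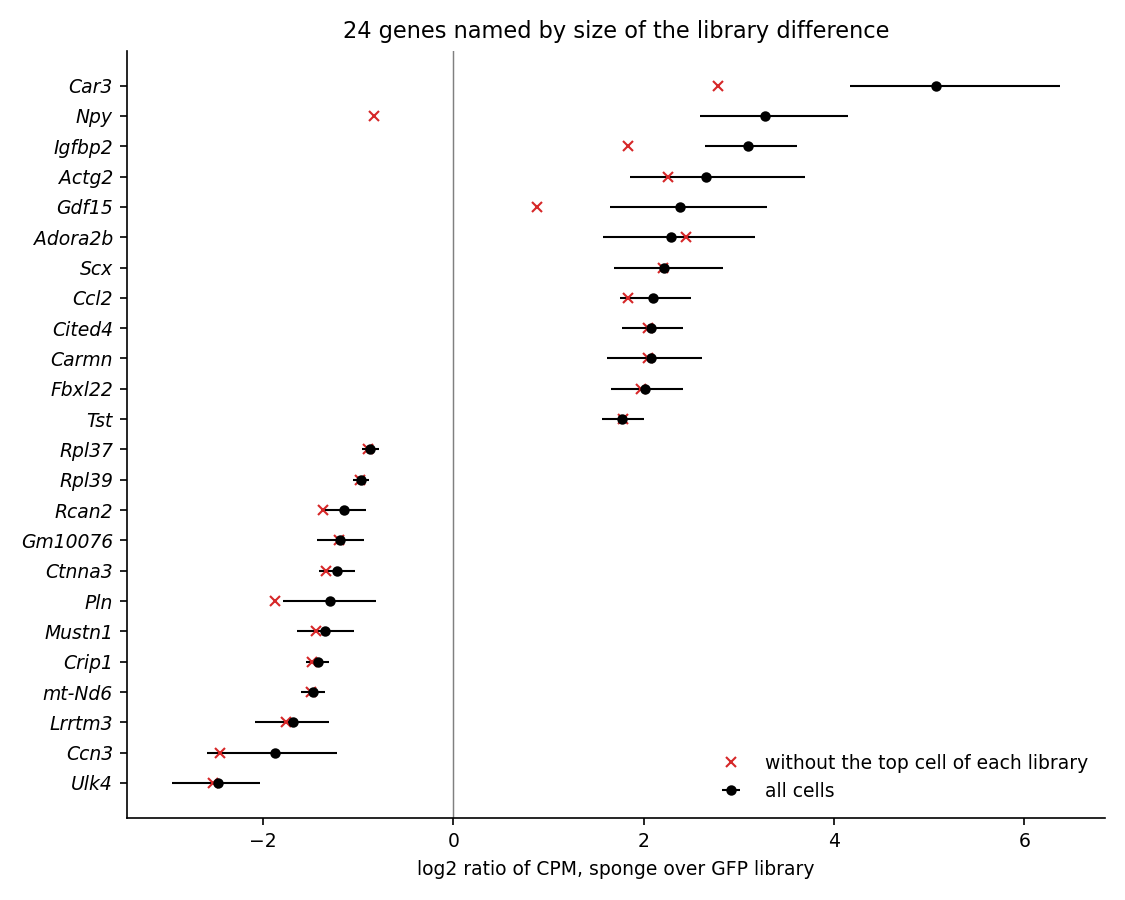
Log2 ratio of sponge over GFP in contractile cells for the 24 genes named by size; bars are exact binomial counting intervals, and crosses give the ratio after the richest cell of each library is left out. The crosses of Car3, Igfbp2, Gdf15 and Npy lie far to the left of their points, and that of Npy lies below 0.

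The microRNAs that the sponge is aimed at share the seed in capitals (bases 2 to 8; RefSeq, GRCm38.p6), which is the part that pairs with target transcripts.
mmu-miR-181a-5p: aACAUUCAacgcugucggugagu
mmu-miR-181b-5p: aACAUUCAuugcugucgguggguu
A list of 12 genes reported as targets of these microRNAs had a median log2 ratio of -0.06 in contractile cells, near the -0.05 of all measured genes, with 5 above 0, 7 below and 0 at least 2-fold apart. Mcl1, an inhibitor of cell death, stood at 173 and 248 CPM, a log2 ratio of 0.53 (0.36 to 0.69), and Coq10b, which binds coenzyme Q, at 100.2 and 136 CPM, a log2 ratio of 0.44 (0.22 to 0.66). In all other kept cells their log2 ratios were 0.52 and 0.75. Nrf1, a regulator of mitochondrial genes, had -0.39 (-0.71 to -0.06), and Bcl2, another inhibitor of cell death, had -0.22 (-0.55 to 0.12). Mature microRNAs are not read by these libraries.

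Vector transcript was scarce in contractile cells. The reference held an eGFP sequence, and 0 of 561 contractile cells of the library labelled GFP had an eGFP UMI, which allows a share of up to 0.535% (3 counts), against 5 of 359 in the library labelled sponge (1.39%, exact interval 0.454% to 3.22%). In all other kept cells it was found in 10 of 38724 (0.0258%) and 697 of 22841 (3.05%), and in bipolar cells of the sponge library in 2.41%. Whether the sponge vector also carries eGFP is not stated in the labels. Which contractile cells took up either vector cannot be told from these counts.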

How the data were processed

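Each of the 2 libraries was made from dissociated eye tissue (papain) with the 10x Genomics 3′ V3.1 kit, per the labels' protocols. The deposited matrices hold raw UMI counts per gene and cell barcode, made by the authors with Cell Ranger 7.0.0 on mm10, per the submitters' processing notes; the gene table also lists eGFP. Totals were 123040365 UMIs in 39461 barcodes (GFP) and 132067896 UMIs in 23267 barcodes (sponge). Barcodes with at least 500 UMIs, at least 300 genes and at most 25% mitochondrial UMIs were kept, 39285 and 23200. The members and lists were chosen with earlier results of these data known. Counts were summed per set of cells and library and scaled to CPM; ratios add 0.5 to both counts, and a gene needed 20 UMIs to be measured. Levels have exact Poisson intervals, ratios exact binomial and shares exact Clopper-Pearson intervals, all 95%; a count of 0 was read as at most 3 counts. UMIs in 1 library are not replicates, so no p-value was computed. No doublet caller was run. Named genes were the members of 13 lists, the 12 highest and 12 lowest by the counting bound of the ratio nearest 0, and the 20 with the highest ratio of contractile over other cells. Of the latter the text describes Wif1, Gfra1, Pappa, Clmp, Smtn, Tpm2, Myocd, Mustn1 and Map3k7cl. Genes shown for the groups of contractile cells were chosen after their values were seen. The interval was tested on simulated counts. Alternatives were a stricter cell filter, other marker numbers, scalings, count filters, thinning and single groups. Python 3.11.15, numpy 2.4.6, scipy 1.17.1, pandas 2.3.3 and matplotlib 3.10.9 were used. Some members of the gene lists are not reported here by name.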

Additional observations from a re-analysis of the deposited data

Results flagged for a closer look

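A signal was seen in a feature outside the gene comparisons: contractile cells of the sponge library held 6 eGFP UMIs and those of the GFP library 0. At their totals this is 1.44 CPM (exact Poisson interval 0.527 to 3.13), against the 1.20 CPM that a count of 0 allows in the GFP library, so counting error alone does not separate them.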

How the results depend on the processing

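No paired analysis was possible because each group has 1 library, and no replicate could be left out. The share of contractile cells in the GFP and sponge libraries was 1.64% and 1.80% with a stricter cell filter, 0.952% and 1.27% with at least 4 muscle genes, 1.22% and 1.02% without the 10% of cells with the most UMIs, 0.698% and 1.28% after thinning, and 0.145% and 0.0690% without cells that hold 3 genes of another class, which leaves 57 and 16 cells. The order of the libraries thus depends on the setting. The lists of other classes include the pigment genes, of which 61.9% and 70.8% of contractile cells held at least 3. They also include bipolar genes, of which 65.8% and 66.6% of contractile cells and 61.1% and 56.2% of other kept cells held at least 3. Genes at least 2-fold higher and lower numbered 747 and 992. They numbered 203 and 165 without the cells that hold 3 genes of another class, 377 and 337 with a minimum of 100 UMIs, 1727 and 3870 with no minimum, and 430 and 433 after thinning. Those lower numbered 447 in the mural-gene and 350 in the neither cells; the splits by group were chosen after seeing the data. Fewer genes are measured under the stricter settings. The contractile apparatus median stayed above 0 under all 13 alternatives and was lowest, at 0.58, without the 10% of cells with the most UMIs, where the pericyte median was 0.96. The pericyte median was -0.70, 1.40 and -0.96 in the pigment-gene, mural-gene and neither cells, from 5, 11 and 4 measured genes of 12. The antigen presentation median was 1.57 in the mural-gene and 1.17 in the neither cells, from 7 and 11 measured genes of 15. The interferon median was 1.48 in the mural-gene cells, from 9 measured genes of 20. These medians cover fewer genes than those over all contractile cells. A gene can also reach the minimum count through the library where it is higher. The cause of these moves was not tested. The 47 mural-gene cells of the sponge library, with 400625 UMIs in all, limit what can be said of them.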

Other observations

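A further 33 contractile cells of the GFP library and 20 of the sponge library met both the pigment and the mural criterion. Their median depth was 5460 and 14726.5 UMIs, above that of every other group of contractile cells in the same library. Among the cells that passed on muscle genes but were barred, Krt5 was held by 93 and 136, C1qa by 80 and 81, Lum by 74 and 89, and Pecam1 by 56 and 47, with some cells holding more than 1 of these genes. Another 89 and 65 cells held 3 or more of the muscle genes without Myh11, Cnn1 or Des and without an exclusion gene.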
